A study of Homo sapiens with 6 samples.

Results

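The genes described here are 10 components and transcriptional targets of the Hippo pathway and of its effectors YAP, TAZ and the TEAD factors. They are CYR61, CTGF, ANKRD1, AMOTL1, AMOTL2, AJUBA, LATS2, YAP1, WWTR1 and TEAD1, picked by symbol among the 15376 rows of a table of coding genes, and all 10 were found. The RNA came from PC9ER, a human non-small-cell lung cancer cell line that the series describes as driven by EGFR and resistant to gefitinib, an inhibitor of the EGFR tyrosine kinase. There were 3 control libraries, from cells labelled DMSO (the vehicle), and 3 libraries from cells labelled gefitinib, given at 1 µM for the last 6 h. One protocol covers all samples: growth in medium with 10% fetal calf serum, 72 h of the Notch pathway inhibitor DBZ at 250 nM or of its vehicle DMSO, and overnight serum withdrawal before gefitinib. It does not say whether the control cells were also without serum, so the drug and a possible difference in serum cannot be told apart. Cells given DBZ were not analysed here. Nothing in the labels says whether the 3 libraries of a group were grown as separate cultures. The p-values are therefore set against a spread between libraries that may be technical.

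In the Hippo pathway, the kinases MST1 and MST2 activate LATS1 and LATS2, which phosphorylate YAP and its paralog TAZ (the product of WWTR1) and keep them out of the nucleus. YAP and TAZ bind no DNA themselves: in the nucleus they join TEAD factors at promoters and enhancers, often beside AP-1, and raise genes such as CYR61, CTGF and ANKRD1. Some targets feed back on the pathway, among them LATS2 and the angiomotins, which restrain YAP, and AJUBA, which restrains LATS kinases. In epithelial tumours, YAP has been linked to growth and to survival under EGFR inhibition.

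The members moved in both directions. In the gefitinib libraries 5 members rose (CYR61, CTGF, AMOTL2, AJUBA and LATS2), 4 fell (ANKRD1, AMOTL1, YAP1 and TEAD1) and WWTR1 did not pass the test. A gene was called when the adjusted p of limma, fitted on 15229 coding genes, was below 0.05. By that rule 51.1% of all tested genes were called, 28.3% higher and 22.8% lower, so a call by itself sets no gene apart in these libraries. The excess of higher genes depended on the scaling. With TMM factors limma called 3902 genes higher and 3845 lower, and filtered edgeR called 3707 higher and 3752 lower. With at least a 2-fold difference required as well, 4 members were higher (background 12.4%) and 2 lower (background 9.92%). With edgeR on the recovered reads, 4 members were higher and 4 lower of 9 tested, beside 61.3% of all genes called in either direction. The groups did not overlap for 9 of 10 members, against 58.0% of all tested genes. Fitted only on the 12097 genes with a mean of at least 10 normalized reads, limma called 4044 higher and 3389 lower. That is a larger share than over all tested genes. Of the 9 members in that fit, 4 were higher and 4 lower. The members' median log2 difference was 0.17, beside 0.10 over all tested genes. In bulk RNA, fewer cells of a kind and less RNA per cell cannot be told apart, which holds for every value below.

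**Figure D1:**
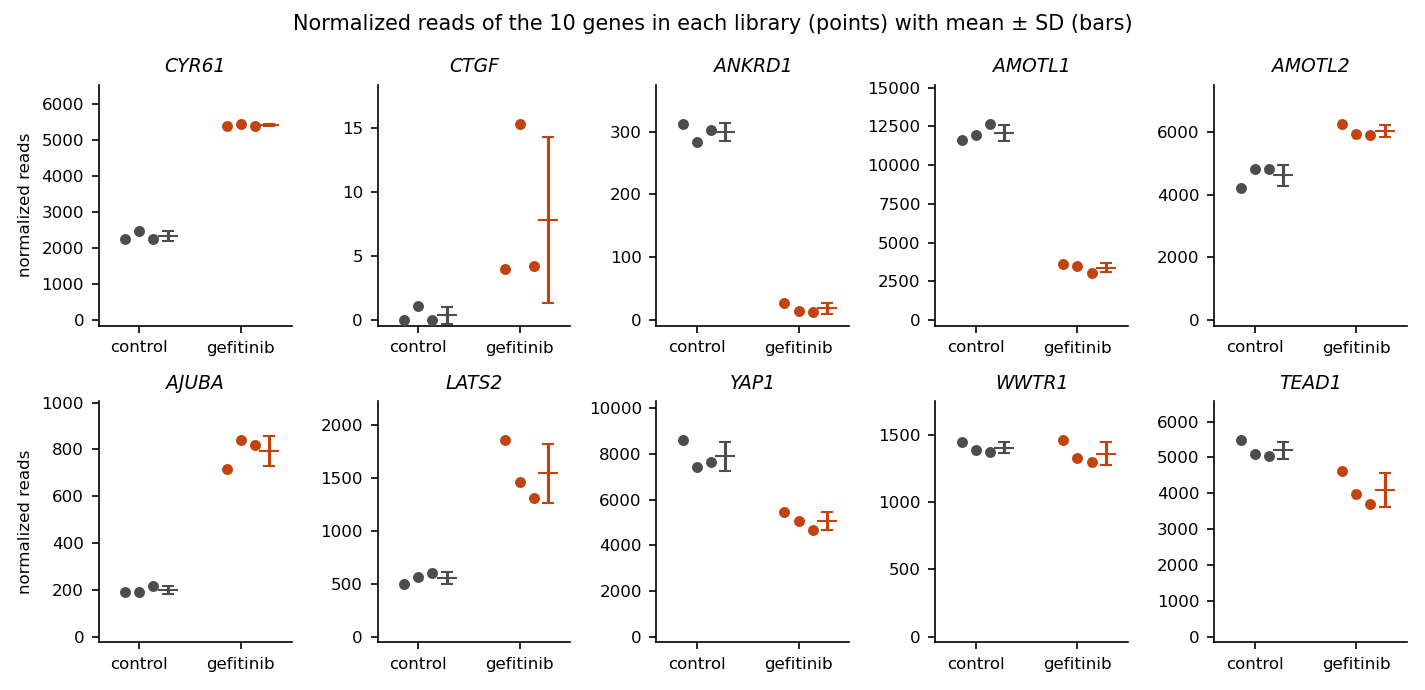
Normalized reads (linear axes from 0) of each of the 10 genes in the 3 control and 3 gefitinib libraries, 1 point per library, with the mean and SD as bars beside them. ANKRD1 and AMOTL1 are far lower, and CYR61, AJUBA and LATS2 higher, in all 3 gefitinib libraries, while the WWTR1 points of the groups overlap.

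CYR61, CTGF and ANKRD1 are the targets most often used to read YAP and TEAD activity, and they did not move together. CYR61 (chr1:85580761-85583962, GRCh38), a secreted matrix protein that binds integrins, had 2259, 2482 and 2252 normalized reads in the control libraries and 5398, 5446 and 5392 in the gefitinib libraries. All 3 gefitinib libraries lay above all controls, and their values were close to each other. Its mean went from 2331 ± 131 to 5412 ± 29.9 normalized reads (SD, n = 3 each), a 2.32-fold rise. The log2 difference was 1.22 ± 0.07 (SE, limma adjusted p = 3.07e-06).

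ANKRD1 (chr10:90912096-90921276), an ankyrin repeat protein found in the nucleus and in the muscle sarcomere, went the opposite way. It had 312, 283 and 302 normalized reads in the control libraries and 27.8, 14.5 and 13.1 in the gefitinib libraries. The groups were far apart, and replicate 1 was the highest of the gefitinib libraries. The mean fell from 299 ± 14.8 to 18.5 ± 8.10 normalized reads (SD, n = 3 each), which is 16.2-fold lower. On the log2 scale the difference was -4.02 ± 0.29 (SE, limma adjusted p = 7.19e-06), the fall with rank 20 among all tested genes.

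CTGF (chr6:131948176-131951373), a secreted protein of the same family as CYR61, had very few reads in these libraries. It was listed at 0, 1.12 and 0 normalized reads in the control libraries, and at 3.97, 15.4 and 4.22 in the gefitinib libraries. These values stand for 1 read in all 3 control libraries together, against 29 reads in the gefitinib libraries, 17 of them in replicate 2. Corrected for depth, the ratio of reads was 24.3 with an exact 95% interval of 4.03 to 993, which covers counting error only. The gene was called higher (limma adjusted p = 0.00434), but at a level of a few reads. The log2 difference on the tested scale was 2.55 ± 0.56 (SE), and it ranged from 1.15 to 4.52 with the pseudocount and the tool.

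ANKRD1 and CTGF were the members with more than 1 match to the TEAD core motif among those whose promoter window could be searched, which leaves out CYR61 and TEAD1. The RefSeq promoter table (GRCh38) held 8 of the 10 members, with 11 windows, and the 250 bases before each start were searched for GGAATG, which reads CATTCC on the other strand. At least 1 match was found in 11.9% of all 35116 windows of that length, and at least 2 matches in 0.94%. CTGF had 3 matches, beginning 169, 104 and 95 bases before the start. ANKRD1 had 2 matches, at 220 and 128 bases before the RefSeq start, the second of them inside its GENCODE gene. It also had a single match to the AP-1 motif TGANTCA (the same letters on both strands), which is in 6.57% of all windows. The upstream stretches of both are shown on the minus strand, with the motif in capitals, because the same letters stand before a gene that rose and a gene that fell. The CTGF stretch lies just outside the gene, outside GENCODE exons, and the ANKRD1 stretch is the part of its window outside GENCODE exons.
CTGF chr6:131951374-131951622: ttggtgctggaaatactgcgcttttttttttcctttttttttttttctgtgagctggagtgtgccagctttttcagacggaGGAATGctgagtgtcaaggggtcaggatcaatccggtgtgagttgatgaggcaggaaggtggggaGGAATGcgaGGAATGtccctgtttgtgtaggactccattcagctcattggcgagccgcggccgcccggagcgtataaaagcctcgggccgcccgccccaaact
ANKRD1 chr10:90921277-90921337: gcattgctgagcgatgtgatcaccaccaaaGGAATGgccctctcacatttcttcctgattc

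Single matches stood before AMOTL2, AJUBA and YAP1, so the motif was found before 3 members that rose (CTGF, AMOTL2 and AJUBA) and 2 that fell (ANKRD1 and YAP1). No match was found in the windows of AMOTL1, LATS2 and WWTR1. The windows of AMOTL1 and WWTR1 lie within the GENCODE genes, and the bases before the GENCODE starts of these genes were not searched. A match is a description of letters and not a measured binding site. The matches of AMOTL2 and AJUBA lie within the GENCODE gene, since RefSeq gives each of them more than 1 start. The second match of ANKRD1 also lies within its GENCODE gene, which begins upstream of the RefSeq start. The 4 sites shown next all lie in bases that GENCODE annotates as exon of some transcript, on either strand. Each site is given with 10 bases on either side, 5′ to 3′ on the strand of its gene, beside the second match of ANKRD1.
ANKRD1 chr10:90921200-90921225, minus strand: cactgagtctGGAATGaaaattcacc
AMOTL2 chr3:134374501-134374526, minus strand: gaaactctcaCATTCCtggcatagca
AJUBA chr14:22976886-22976911, minus strand: gaagttggctGGAATGaagccaaagc
YAP1 chr11:102110275-102110300, plus strand: ggagtgtgcaGGAATGtagcaacttg

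Of the feedback genes, AMOTL1 and AMOTL2 encode angiomotins, scaffolds of tight junctions that bind YAP and hold it in the cytoplasm, and they moved in opposite directions. AMOTL1 (chr11:94706431-94876753) had 11602, 11959 and 12670 normalized reads in the control libraries and 3623, 3461 and 3068 in the gefitinib libraries. Every gefitinib value was below every control value. Its mean fell from 12077 ± 544 to 3384 ± 285 (SD, n = 3 each), with a log2 difference of -1.84 ± 0.08 (SE, limma adjusted p = 1.03e-06). AMOTL2 (chr3:134355874-134375479) had 4227, 4805 and 4826 normalized reads in the control libraries and 6263, 5925 and 5914 in the gefitinib libraries. Its groups did not overlap either, with the lowest value in control replicate 1. The mean rose 1.31-fold, from 4619 ± 340 to 6034 ± 198 (log2 difference 0.39 ± 0.08, limma adjusted p = 0.00292).

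The ratio of AMOTL1 to AMOTL2 within a library, each per kilobase of exon, does not depend on the scaling of the library. It was 1.64, 1.48 and 1.57 in the control libraries and 0.345, 0.348 and 0.309 in the gefitinib libraries. AMOTL1 was thus the more abundant of the pair in every control library and the less abundant in every gefitinib library. This ratio was chosen after its values were seen. The exact permutation test gave p = 0.1 (2-sided), the smallest that 3 against 3 libraries allow. Since the groups were already seen not to overlap, that p was fixed beforehand. AMOT, the third angiomotin, had a log2 difference of -0.37 (limma adjusted p = 0.00838), a fall, and is named here after its values were seen.

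LATS2 and AJUBA both rose. LATS2 (chr13:20973032-21061547), the kinase that phosphorylates YAP and TAZ, had 493, 562 and 599 normalized reads in the control libraries and 1852, 1460 and 1309 in the gefitinib libraries. All gefitinib values were higher, and replicate 1 stood above the other gefitinib libraries. The mean rose 2.79-fold, from 552 ± 54.0 to 1540 ± 280 (log2 difference 1.47 ± 0.14, limma adjusted p = 3.09e-05). AJUBA (chr14:22971174-22982642), a LIM domain protein that binds LATS kinases at cell junctions, had 191, 189 and 218 normalized reads in the control libraries and 718, 840 and 819 in the gefitinib libraries. The groups were well apart. Its 3.98-fold rise, from 199 ± 16.4 to 792 ± 64.9, was the largest among members with more than a few reads (log2 difference 1.99 ± 0.12, limma adjusted p = 3.47e-06). Its paralogs are LIMD1 and WTIP, named here after their values were seen. LIMD1 fell, with a log2 difference of -0.23 (limma adjusted p = 0.047). The LIMD1 call was lost with a replicate block (adjusted p = 0.0572), without control replicate 2 (0.113) or 3 (0.133), and without gefitinib replicate 1 (0.0529), 2 (0.118) or 3 (0.159). WTIP, at 18.1 ± 3.20 and 30.5 ± 15.0 normalized reads, did not pass (limma adjusted p = 0.185).

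**Figure D2:**
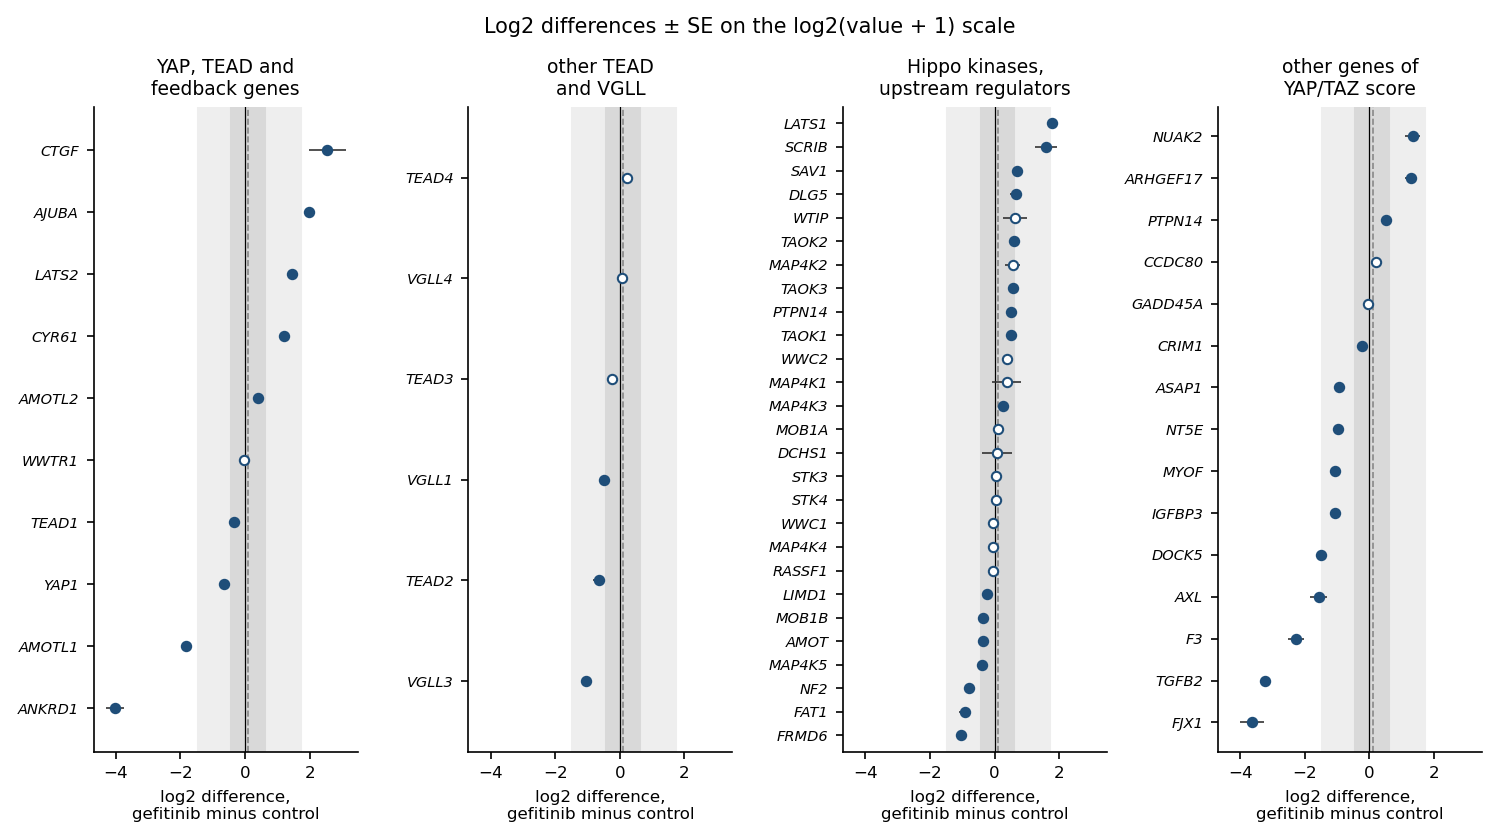
Log2 difference (gefitinib minus control) with its SE as a line, in 1 panel for the members and 1 for each of the other lists; filled points passed the limma test and open points did not. The shading spans the 5th to 95th (light) and 25th to 75th (dark) percentiles of all tested genes, and the dashed line is their median of 0.10; the members run from -4.02 for ANKRD1 to 2.55 for CTGF.

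Of the effectors, YAP1 and TEAD1 fell by less than 2-fold, and WWTR1 did not pass the test. YAP1 (chr11:102110461-102233423) had 8607, 7433 and 7653 normalized reads in the control libraries and 5456, 5063 and 4667 in the gefitinib libraries. The lowest control value was above the highest gefitinib value. Its mean fell from 7898 ± 624 to 5062 ± 394 (log2 difference -0.64 ± 0.09, limma adjusted p = 0.000292). WWTR1 (chr3:149517235-149736714), which encodes TAZ, had 1452, 1391 and 1376 normalized reads in the control libraries and 1463, 1328 and 1300 in the gefitinib libraries. The groups overlapped, with the single highest value in gefitinib replicate 1. Its log2 difference was -0.05, with a 95% interval from -0.24 to 0.14 (limma adjusted p = 0.677).

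The ratio of YAP1 to WWTR1 within a library, per kilobase of exon, was 7.92, 7.14 and 7.42 in the control libraries and 4.98, 5.09 and 4.79 in the gefitinib libraries. YAP1 RNA exceeded WWTR1 RNA in every library, by less in each gefitinib library than in any control library. The difference of the mean log2 ratios was -0.60. The exact permutation test gave p = 0.1 (2-sided), the smallest that 20 splits of 3 against 3 allow. Reads at the overlap with antisense genes could not be assigned with certainty, since it is not known here if the counting was stranded: such genes cover 9.97% of the exon bases of YAP1, 9.45% of WWTR1, 8.34% of CTGF and 4.94% of AMOTL1.

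TEAD1 (chr11:12674591-12944483), which binds the DNA in its complex with YAP or TAZ, had 5481, 5098 and 5046 normalized reads in the control libraries and 4612, 3974 and 3699 in the gefitinib libraries. All gefitinib values were below all control values, by a small margin for replicate 1. The mean fell from 5208 ± 238 to 4095 ± 468 (log2 difference -0.35 ± 0.09, limma adjusted p = 0.0114). The call was lost without gefitinib replicate 2 (adjusted p = 0.0556) or gefitinib replicate 3 (adjusted p = 0.0525).

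TEAD1 was the most abundant TEAD gene in both groups. Per kilobase of exon its mean level was 507 normalized reads in the control group and 398 in the gefitinib group, against 236 and 199 for TEAD3, 145 and 171 for TEAD4, and 113 and 71.1 for TEAD2. TEAD2 fell from 336 ± 77.3 to 212 ± 16.0 normalized reads (log2 difference -0.64 ± 0.18, limma adjusted p = 0.0168). That call was lost in 4 of the 6 fits that left out 1 library: without control replicate 2 (0.0588) or 3 (0.0560), or without gefitinib replicate 1 (0.0593) or 2 (0.0540). TEAD3, at 720 ± 108 and 605 ± 51.3 normalized reads, did not pass (limma adjusted p = 0.165) except without control replicate 1 (adjusted p = 0.00996). TEAD4 did not pass either, at 330 ± 39.5 and 388 ± 8.84 normalized reads (limma adjusted p = 0.159).

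The VGLL proteins are cofactors that bind TEAD in place of YAP or TAZ. VGLL3 fell from 606 ± 63.1 to 294 ± 52.3 normalized reads (log2 difference -1.05 ± 0.15, limma adjusted p = 0.000375). VGLL1 fell from 3070 ± 147 to 2166 ± 145 normalized reads (log2 difference -0.50 ± 0.08, limma adjusted p = 0.00077). Among the 6 TEAD and VGLL genes tested besides TEAD1, limma called 3 lower and 0 higher, with a median log2 difference of -0.37. That share, 3 of 6, is close to the 51.1% of all tested genes called. At an unadjusted p under 0.05 the count of higher genes was also 0, as it was with edgeR; VGLL2 was not analysed here.

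**Figure D3:**
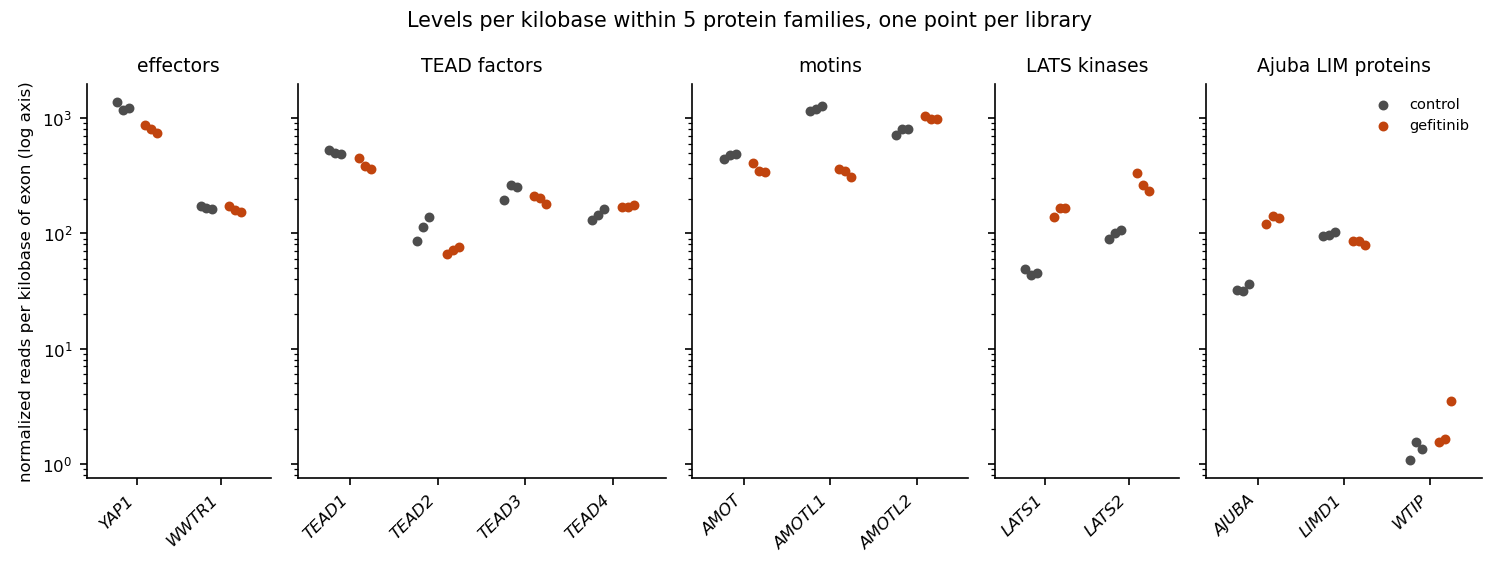
Normalized reads per kilobase of exon (log axis) in each library, 1 point per library, for the effectors, the TEAD factors, the motins (angiomotins), the LATS kinases and the Ajuba proteins. AMOTL1 lies above AMOTL2 in the 3 control libraries and below it in the 3 gefitinib libraries, while TEAD1 is the highest TEAD gene in all 6.

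Set per kilobase of exon, the scale on which genes can be compared, the order of the members changed. In the control libraries YAP1 (mean 1254) and AMOTL1 (1204) led and overlapped each other, followed by CYR61 (950), AMOTL2 (772), TEAD1 (507), WWTR1 (167), ANKRD1 (151), LATS2 (98.9), AJUBA (33.3) and CTGF (0.159). In the gefitinib libraries CYR61 led (2205), followed by AMOTL2 (1008), YAP1 (804), TEAD1 (398), AMOTL1 (337), LATS2 (276), WWTR1 (162), AJUBA (132), ANKRD1 (9.32) and CTGF (3.36). AMOTL1 overlapped both TEAD1 and LATS2 there. The control level of CYR61 exceeded that of 94.6% of genes, and its gefitinib level that of 98.3%. ANKRD1 went from above 66.8% of genes to above 28.1%, and AJUBA from above 40.0% to above 63.9%.

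Upstream of YAP, the kinases and scaffolds of the pathway moved in both directions. Of 27 tested genes in the list of Hippo kinases and upstream regulators, 9 rose, 7 fell and 11 did not pass, with a median log2 difference of 0.09. That share of calls, 59.3%, is close to the background. LATS1, the paralog of LATS2, rose from 396 ± 21.6 to 1351 ± 143 normalized reads (log2 difference 1.76 ± 0.11, limma adjusted p = 3.46e-06). The ratio of LATS2 to LATS1 per kilobase of exon, chosen after its values were seen, was 2.17 ± 0.301 in control and 1.80 ± 0.540 in gefitinib libraries (exact permutation p = 0.4, 2-sided).

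SAV1, the adaptor of the MST kinases, rose from 1194 ± 108 to 1916 ± 145 normalized reads (log2 difference 0.68 ± 0.10, limma adjusted p = 0.000359). TAOK3, a kinase that can activate MST kinases, rose from 1358 ± 15.3 to 1996 ± 118 normalized reads (log2 difference 0.55 ± 0.08, limma adjusted p = 0.000363). FRMD6, a membrane scaffold, fell from 3238 ± 188 to 1595 ± 173 normalized reads (log2 difference -1.03 ± 0.10, limma adjusted p = 2.95e-05).

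The other genes of a published score of 22 YAP and TAZ targets were mostly lower in gefitinib libraries. Of 15 tested that are not members, 3 rose (PTPN14, ARHGEF17 and NUAK2) and 10 fell (MYOF, ASAP1, AXL, F3, IGFBP3, CRIM1, FJX1, NT5E, DOCK5 and TGFB2). PTPN14 also stands in the list of Hippo kinases and upstream regulators, and its rise is counted in both lists. Over all tested genes 28.3% were higher and 22.8% lower. All 15 had a mean of at least 10 normalized reads. Among the 12097 genes with such a mean, 4044 were higher and 3389 lower. The median log2 difference of the 15 was -0.96, beside 0.10 over all tested genes. At least a 2-fold difference was reached by 2 that rose (background 12.4%) and 7 that fell (background 9.92%). The members in that score divided otherwise: CYR61, CTGF, AMOTL2 and LATS2 rose and ANKRD1 fell. With them the score counted 7 higher, 11 lower and 2 not past the test of 20 tested, with a median log2 difference of -0.57.

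On the log2 scale the 10 falls ran from -0.21 to -3.62 and the 3 rises from 0.52 to 1.34. The smallest fall, that of CRIM1, was near the threshold (limma adjusted p = 0.0469), and is singled out after its values were seen. The count of falls was 9 without control replicate 2 or 3, and without gefitinib replicate 2 or 3. The 4 genes with the smallest p were all lower. TGFB2, a secreted growth factor, fell from 1341 ± 115 to 143 ± 18.4 normalized reads (log2 difference -3.22 ± 0.13, limma adjusted p = 6.3e-07). DOCK5, an exchange factor for RAC, fell from 2378 ± 19.1 to 844 ± 54.0 normalized reads (log2 difference -1.49 ± 0.08, limma adjusted p = 2e-06). IGFBP3, a secreted binding protein of insulin-like growth factors, fell from 6415 ± 81.5 to 3046 ± 42.3 normalized reads (log2 difference -1.07 ± 0.07, limma adjusted p = 3.39e-06). ASAP1, a regulator of ARF GTPases and of adhesion, fell from 8246 ± 153 to 4334 ± 35.8 normalized reads (log2 difference -0.93 ± 0.07, limma adjusted p = 6.64e-06). Many genes of the list are known to answer to other pathways as well. The part of YAP, TAZ or any other pathway in these differences was not tested.

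EGFR, the target of gefitinib, fell from 31425 ± 3059 to 15759 ± 247 normalized reads (log2 difference -0.99 ± 0.09, limma adjusted p = 2.14e-05). The 6 libraries held 13674237 to 38581498 coding reads. Lung adenocarcinoma and epithelial markers (9 of 10 in the table, without NKX2-1) summed to 109601 to 150918 normalized reads in control and 83290 to 86727 in gefitinib libraries. Little of that sum came from NAPSA (means of 21.2 in control and 15.6 in gefitinib libraries) and SFTPB (7.82 and 14.6). Both are named here after their values were seen. Of these 9 markers, EGFR among them, 6 fell, 2 did not pass and EPCAM rose, from 9764 ± 738 to 12017 ± 333 (limma adjusted p = 0.0106; 0.052 to 0.0823 with TMM or DESeq2 scaling, edgeR and DESeq2, which did not call it); it is named after its values were seen. Endothelial markers (3 of 4) summed to 1180 to 1360 and to 147 to 176, of which PECAM1 was the largest part. PECAM1 was the 1 endothelial marker called, as lower, and the other 2 did not pass. The fibroblast sum (4 of 6) was 32.4 to 71.4 and 47.6 to 68.0, mostly COL1A1. The blood sum (4 of 4) was 17.8 to 29.6 and 19.7 to 30.7, mostly LYZ. The part of these marker changes in the members' differences was not tested.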

How the data were processed

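Total RNA of PC9ER cells was sequenced in 3 control and 3 gefitinib libraries, grouped by title. STAR, HTSeq and GRCh38 are named in the submitters' processing notes; versions and strand use are not given in the sources used here. The deposited values are a signal, made by the authors by scaling each library's read counts so that they sum to 18085800. Within 0.01 read, 100% of the values above 0 were whole reads, which gave depths. The 147 of 15376 genes with no read in any library were left out, which gave 15229 tested genes. Another table's 6 sample columns match no label and are not used.

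Values were transformed to log2(value + 1) and fitted with the 2-sided trend test of limma 3.58.1 in R 4.3.3. P-values were adjusted by Benjamini and Hochberg's method across every tested gene, and the threshold was 0.05. Fold changes of low genes are understated on that scale. The design allowed for raw counts and edgeR; the table is scaled, so limma was used. Alternatives were pseudocounts of 0.5 and 5, a mean of at least 10, TMM and DESeq2 factors, edgeR 4.0.16 and DESeq2 1.42.0 on recovered reads, a replicate block and leaving out each library. The code of the model was also run on simulated counts in which few genes changed, equally in both directions. Most genes did not change there, unlike in these libraries, so that run does not check the calls made here.

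Levels per kilobase use merged exons of GENCODE 29, the source of gene coordinates. Promoters are from RefSeq, which had no entry for CYR61 and TEAD1. The members and the gene lists were chosen with earlier results of these data known. The text names every member, EGFR, TEAD2 to TEAD4, and from each other list up to 4 genes with the smallest p; others are marked, or stand only in a count. One blood marker is not reported here by itself.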

Additional observations from a re-analysis of the deposited data

How the results depend on the processing

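Over 15 alternatives, 146 of 148 fits of the members kept the direction and the side of the threshold, none reversed, and the other 2 were TEAD1 without gefitinib replicate 2 or 3. The count of higher members was 5 and that of lower members 3 to 4 when each library was left out in turn. On recovered reads edgeR with a filter called 4 members higher and 4 lower of 9 tested, without CTGF, whose few reads did not pass the filter; by that rule 61.3% of all tested genes were called. With the replicate block, 5 members were higher and 4 lower, and 4438 of all genes were higher and 3552 lower, against 4312 and 3473 without it. DESeq2 also called 5 members higher and 4 lower, but 3687 of all genes higher and 3736 lower. The replicate numbers were not taken as pairs. Deviations from the group means correlated at 0.127, 0.0444 and 0.0947 between same-numbered libraries, not all above 0.1; control replicates 1 and 3 correlated best with their own number, and control replicate 2 with gefitinib replicate 3 (0.0862). Depth limits CTGF most, with 1 read over 3 control libraries.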

Other observations

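Among the gefitinib libraries, replicate 1 was the highest for 7 of 10 members and replicate 3 the lowest for 8 of 10. Over the 12097 genes with a mean of at least 10 normalized reads, replicate 1 was the highest for 42.4% and replicate 3 the lowest for 39.8%. Replicates of a group have no order, and the libraries differed in depth, from 13674237 coding reads in gefitinib replicate 1 to 38581498 in gefitinib replicate 3. No pair of libraries within a group agreed within sampling noise: the chi-square per degree of freedom over genes was 5.36 to 63.8. The spread was uneven. Control replicate 1 gave 30.3 with replicate 2 and 63.8 with replicate 3, against 8.22 between control replicates 2 and 3. Gefitinib replicate 1 gave 11.3 with replicate 2 and 22.4 with replicate 3, against 5.36 between the latter.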
